A study of Mus musculus with 10 samples.

Results

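The Dlx and Msx genes encode homeodomain transcription factors, and 8 of the 24500 genes counted in this ChIP-seq study were followed here by their symbols: Dlx1, Dlx2, Dlx3, Dlx4, Dlx5, Dlx6, Msx1 and Msx2. H3K27me3 and EZH2 were profiled in control E14 cells, which are wild-type mouse ES cells, and in their ex14D-Ezh2 derivatives, the same line with exon 14 of Ezh2 disrupted by CRISPR-Cas9 so that the splice form without that exon is the one left intact. The sample titles call the mutant Ezh2KO, a name the study also uses for cells without EZH2, and the genotype label gives a knockout of exon 14, on which the samples were taken as ex14D. The labels name no other allele or agent. Each antibody had 2 libraries per genotype and each genotype had 1 input library, 10 libraries in all. The sources used here do not say whether the 2 libraries of a genotype came from separate lines or cultures, so the tests measure the spread between libraries, which may be technical. ChIP counts do not check the mutation itself.

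Polycomb repressive complex 2 places methyl groups on lysine 27 of histone H3 through its catalytic subunit EZH2, and in ES cells the trimethylated form covers many silent regulators of development. Dlx genes, relatives of the fly gene Distal-less, lie in the genome as pairs whose members are transcribed towards each other. They are best known for the forebrain, where Dlx1, Dlx2, Dlx5 and Dlx6 act in making GABAergic neurons, and for the pharyngeal arches and the skeleton. Msx1 and Msx2 are targets of BMP signalling in the neural crest, the teeth, the skull and the limb buds.

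The promoters show the base composition on which H3K27me3 is usually found in ES cells, so the ones matched in RefSeq (GRCm38.p6, 250 bases before to 50 after the start, read in the direction of transcription) are printed here. Sequence was matched for 4 of the 8 genes, and capitals mark each CG dinucleotide, which reads the same on both strands. Dlx1 is chr2:71529195-71529494 on the + strand, Dlx2 is chr2:71546705-71547004 on the - strand, Msx1 is chr5:37824536-37824835 on the - strand and Msx2 is chr13:53472731-53473030 on the - strand.
Dlx1: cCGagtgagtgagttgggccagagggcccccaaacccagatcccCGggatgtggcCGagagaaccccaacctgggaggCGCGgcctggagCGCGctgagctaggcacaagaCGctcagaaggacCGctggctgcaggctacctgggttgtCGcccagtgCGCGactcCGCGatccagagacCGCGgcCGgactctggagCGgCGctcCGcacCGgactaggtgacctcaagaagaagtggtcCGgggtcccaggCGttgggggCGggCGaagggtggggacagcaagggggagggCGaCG
Dlx2: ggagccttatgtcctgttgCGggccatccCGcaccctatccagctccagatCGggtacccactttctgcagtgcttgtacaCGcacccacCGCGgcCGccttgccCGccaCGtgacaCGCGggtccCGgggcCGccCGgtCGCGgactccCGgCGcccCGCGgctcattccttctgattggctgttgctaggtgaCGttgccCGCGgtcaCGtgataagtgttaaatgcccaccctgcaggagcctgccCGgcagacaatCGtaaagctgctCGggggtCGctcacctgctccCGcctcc
Msx1: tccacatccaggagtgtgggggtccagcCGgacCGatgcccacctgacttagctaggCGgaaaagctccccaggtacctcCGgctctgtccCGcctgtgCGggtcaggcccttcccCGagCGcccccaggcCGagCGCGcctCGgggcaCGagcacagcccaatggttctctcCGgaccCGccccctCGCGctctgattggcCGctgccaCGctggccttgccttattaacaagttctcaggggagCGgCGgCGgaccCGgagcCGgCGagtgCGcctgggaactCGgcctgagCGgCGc
Msx2: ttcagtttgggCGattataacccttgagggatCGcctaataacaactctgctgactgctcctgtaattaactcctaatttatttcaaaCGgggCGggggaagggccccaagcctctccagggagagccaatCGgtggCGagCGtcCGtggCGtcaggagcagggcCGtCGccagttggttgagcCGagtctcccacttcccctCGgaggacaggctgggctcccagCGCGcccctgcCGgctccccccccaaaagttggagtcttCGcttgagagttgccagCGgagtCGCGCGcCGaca
These 300 bases held 27 CG in Dlx1, 29 in Dlx2, 29 in Msx1 and 22 in Msx2, against a median of 7 over 32851 promoters of the same length. The share of all promoters with at least as many CG was 15.5% for Dlx1, 12.9% for Dlx2 and for Msx1, and 23.1% for Msx2. GC content was 69.3%, 66.3%, 70.0% and 61.0% in the same order, against a median of 52.7%. All 4 were thus CpG-rich without being at the extreme.

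The input and H3K27me3 values are read counts in a 1 kb window centred on the 5′-most transcription start, given as CPM, the count scaled to the same total of reads on genes in each library. An input had 409371 or 416778 reads on genes, an H3K27me3 library 594289 to 1450937, and an EZH2 library 13628137 to 18403892. At these depths the 8 windows held 73 to 1226 H3K27me3 reads and 8 to 31 input reads. The spread between libraries of a genotype was larger than counting error alone, since chi-square over its degrees of freedom was 1.95 to 2.31 for H3K27me3 and 1.48 to 3.95 for EZH2. Of 10 promoters of pluripotency genes, 9 stayed below 2-fold H3K27me3 over input in all 4 libraries, and the promoters of 6 housekeeping genes and 4 tissue-specific genes were never 2-fold over input in both libraries of a genotype. The exception was Klf4, at log2 values over input of 1.81 and 1.27 in the control libraries, named after its values were seen.

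All 8 promoters carried H3K27me3 in both genotypes. Enrichment over input was computed as (CPM + 1) over (input CPM + 1), and enriched means at least 2-fold in both libraries of a genotype. This held at 8 of 8 promoters in control, where 11.3% of all 24500 promoters passed, and at 8 of 8 in ex14D, where 9.14% passed. In control cells the 8 promoters lay between 3.80-fold (Msx2) and 12.9-fold (Dlx6), and 93.2% of all promoters were at or below the lowest of them. They were not the highest in the genome, since 119 promoters lay above Dlx6. In control the order from the top was Dlx6 at 12.9-fold, Msx1 at 9.01-fold, Dlx3 at 8.12-fold, Dlx1 at 8.07-fold, Dlx5 at 8.04-fold, Dlx2 at 6.32-fold, Dlx4 at 5.29-fold and Msx2 at 3.80-fold. The libraries of Msx1, Dlx3, Dlx1 and Dlx5 overlapped on this scale, so their order is not resolved, while both libraries of Dlx6 lay above and both of Msx2 below those of the other 7. In ex14D the order was Msx1 at 18.6-fold, Dlx6 at 16.4-fold, Dlx5 at 15.2-fold, Dlx3 at 13.5-fold, Dlx1 at 13.3-fold, Msx2 at 8.40-fold, Dlx2 at 8.11-fold and Dlx4 at 7.29-fold. Here Msx1 overlapped with Dlx6, Dlx6 with Dlx5, Dlx3 with Dlx1, and Msx2 with Dlx2. Each fold rests on 1 input library per genotype and at most 31 input reads, so the counting error of the input enters every value.

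**Figure D1:**
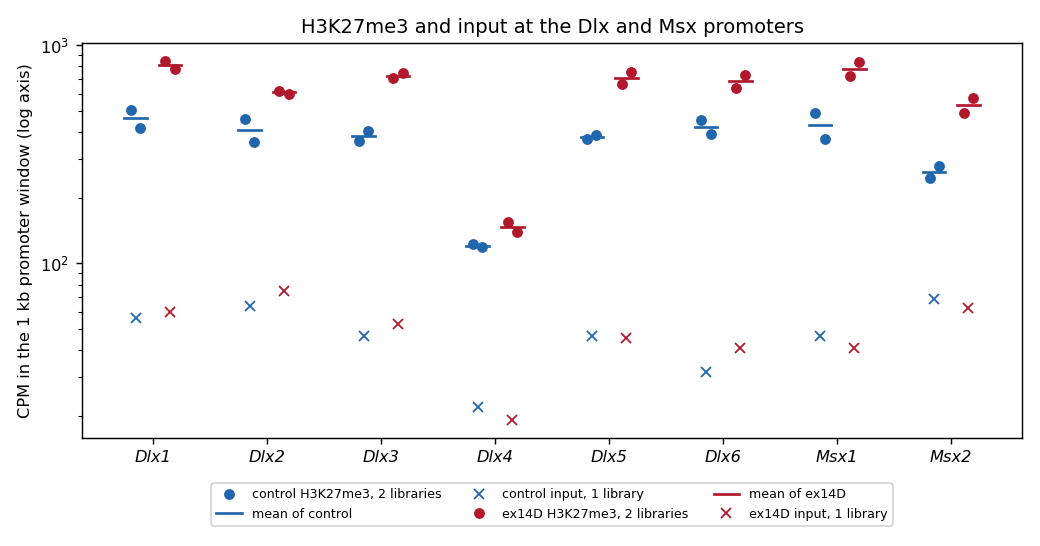
H3K27me3 and input signal in the 1 kb promoter window of each gene (CPM, log axis). Points are single H3K27me3 libraries, short lines the mean of 2 libraries and crosses the single input of each genotype; at all 8 genes both ex14D points lie above both control points, and input lies far below, at 19.2 to 74.4 CPM.

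The ex14D libraries held relatively more H3K27me3 at all 8 promoters. Of the 8, 8 were higher in ex14D at an adjusted p under 0.05 by edgeR (quasi-likelihood, p adjusted over 14883 promoters by Benjamini and Hochberg), and 0 were lower, also at an unadjusted p under 0.05 and by DESeq2. Over all promoters tested, 5.85% were called higher and 3.19% lower. The median log2 fold change of the 8 was 1.29 after the TMM scaling of edgeR, a 2.44-fold difference, against -0.02 over all promoters tested. At 8 of 8 both ex14D libraries were above both control libraries in CPM, which held at 9.1% of all promoters tested. The ex14D to control ratio of input CPM at the 8 windows ran from 0.873 to 1.28, from 1 input library per genotype, and was above 1 at Dlx1, Dlx2, Dlx3 and Dlx6. Over input, the difference was smaller than in CPM at each of these genes. It went from 8.07-fold to 13.3-fold at Dlx1, from 6.32-fold to 8.11-fold at Dlx2, from 8.12-fold to 13.5-fold at Dlx3 and from 12.9-fold to 16.4-fold at Dlx6. At Dlx4, Dlx5, Msx1 and Msx2 the difference was larger over input than in CPM.

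The CPM values are shares within libraries. The H3K27me3 log2 fold changes also carry TMM factors, of 1.16 and 1.18 in control and 0.868 and 0.843 in ex14D. They therefore lie above the log2 ratios of the CPM printed beside them. Dlx4, for example, had a mean of 120.6 CPM in control and 146.5 CPM in ex14D beside a log2 fold change of 0.73. The methods name no spike-in. A higher CPM thus means a larger part of the promoter reads and cannot be read as more mark per cell. By Western blot the paper found less H3K27me3 and less EZH2 protein in ex14D cells than in control. By ChIP-PCR it found less H3K27me3 at the developmental genes it measured, with Bmp6 among them and none of the 8. By ChIP-seq it reported less EZH2 at the target genes in ex14D cells, and H3K27me3 still present at most of them. The share of reads on promoter windows was itself higher in ex14D, at 6.86% and 7.58%, than in control, at 5.65% and 5.98%. Without the TMM scaling factors the median over all promoters moved to -0.47 and that of the 8 genes to 0.84. The distance between these medians was 1.31 on the log2 scale under either scaling. A scaling factor shifts all promoters nearly alike, so this distance is no check on the scaling. Beside promoters of like H3K27me3 in control cells the background was higher too: of 1506 other promoters between the lowest and the highest of the 8 in control enrichment, 568 (37.7%) were higher and 47 lower in ex14D, with a median log2 fold change of 0.48.

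Dlx1 and Dlx2 stand on chromosome 2 of GRCm38, Dlx1 at 71529445-71533981 on the + strand and Dlx2 at 71543408-71546754 on the - strand. H3K27me3 at Dlx1 measured 506.5 and 418.3 CPM in the control libraries and 845.0 and 778.0 CPM in the ex14D libraries. Both ex14D values lay above both control values, and the log2 fold change was 1.26 (SE 0.20, edgeR adjusted p = 8.81e-05). At Dlx2 the control libraries measured 457.7 and 361.7 CPM and the ex14D libraries 619.6 and 601.0 CPM. The groups did not overlap here either, and the log2 fold change was 1.03 (SE 0.20, edgeR adjusted p = 0.00104). Dlx1as, the antisense transcript that overlaps Dlx1, has a promoter window of its own between the pair, and its H3K27me3 was higher by 1.62 (SE 0.21, edgeR adjusted p = 9.43e-06) on the log2 scale.

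Dlx5 and Dlx6, which act in the forebrain, the lower jaw and bone, stand on chromosome 6, Dlx6 at 6863334-6867970 on the + strand and Dlx5 at 6877801-6882068 on the - strand. Dlx5 measured 371.9 and 388.4 CPM of H3K27me3 in control and 665.8 and 753.2 CPM in ex14D. The rise of 1.35 on the log2 scale (SE 0.20, edgeR adjusted p = 4.11e-05) was far larger than the distance between libraries of either genotype. Dlx6 measured 454.3 and 393.7 CPM in control and 636.8 and 732.4 CPM in ex14D, again without overlap, with a log2 fold change of 1.14 (SE 0.20, edgeR adjusted p = 0.000317). The noncoding partners Dlx6os1 and Dlx6os2, both of which overlap Dlx6 on the other strand, were higher by 1.46 (SE 0.22, edgeR adjusted p = 4.43e-05) and 1.63 (SE 0.20, edgeR adjusted p = 5.46e-06).

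Dlx3 and Dlx4 stand on chromosome 11, Dlx3 at 95120117-95125296 on the + strand and Dlx4 at 95140447-95145801 on the - strand. Dlx3, a gene of the epidermis, hair, teeth and placenta, measured 363.5 and 405.5 CPM of H3K27me3 in control and 705.1 and 747.6 CPM in ex14D. Its log2 fold change of 1.37 (SE 0.20, edgeR adjusted p = 3.38e-05) was the second largest of the 8. Dlx4 had the lowest counts of the 8 genes, at 122.8 and 118.4 CPM in control and 154.4 and 138.6 CPM in ex14D. Its window shares 252 bp with that of Dlx4os, and reads on more than 1 window were assigned to no gene, so its counts come from the remaining 748 bp. Input was low there as well, at 22.0 and 19.2 CPM. The genotypes did not overlap at Dlx4, but its log2 fold change of 0.73 (SE 0.23, edgeR adjusted p = 0.0447) was the smallest and the least secure, and it did not pass in 8 of 12 other settings, DESeq2 among them. Dlx4os itself was higher by 1.13 (SE 0.21, edgeR adjusted p = 0.000695).

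Msx1 lies on chromosome 5 at 37820491-37824585 and Msx2 on chromosome 13 at 53466881-53472780, both on the - strand. Msx1 measured 488.0 and 372.4 CPM of H3K27me3 in control and 723.7 and 836.5 CPM in ex14D. The log2 fold change was 1.31 (SE 0.21, edgeR adjusted p = 8.67e-05), and Msx1os, which lies within Msx1 on the other strand, was higher by 1.40 (SE 0.21, edgeR adjusted p = 5.33e-05). Msx2 measured 247.4 and 279.6 CPM in control and 491.4 and 575.3 CPM in ex14D. It had the second lowest level of the 8 in control and the largest change, 1.46 (SE 0.20, edgeR adjusted p = 2.19e-05). Msx3, the remaining Msx gene of the mouse, which is expressed in the dorsal neural tube, stood at 489.7 and 494.0 CPM in control and 578.2 and 540.1 CPM in ex14D. Its log2 fold change of 0.63 (SE 0.19, edgeR adjusted p = 0.0361) was below that of each of the 8, a difference that was not tested, and its control enrichment was 9.42-fold, beside 9.01-fold at Msx1. Like Dlx4, Msx3 did not pass in 8 of 12 other settings, among them DESeq2 (0.54, adjusted p = 0.0524), library size only (0.18, adjusted p = 0.511) and the loss of any 1 library. Leaving out 1 control library, replicate 2, ended the H3K27me3 call at Dlx2, Dlx4, Dlx6 and Msx1, at adjusted p of 0.0543 or more, and left 4 of 8 called with all 8 still higher. Leaving it out also ended the call at Dlx4os, Dlx6os1 and Msx1os, and the call at Dlx4os was lost without ex14D replicate 2 as well.

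**Figure D2:**
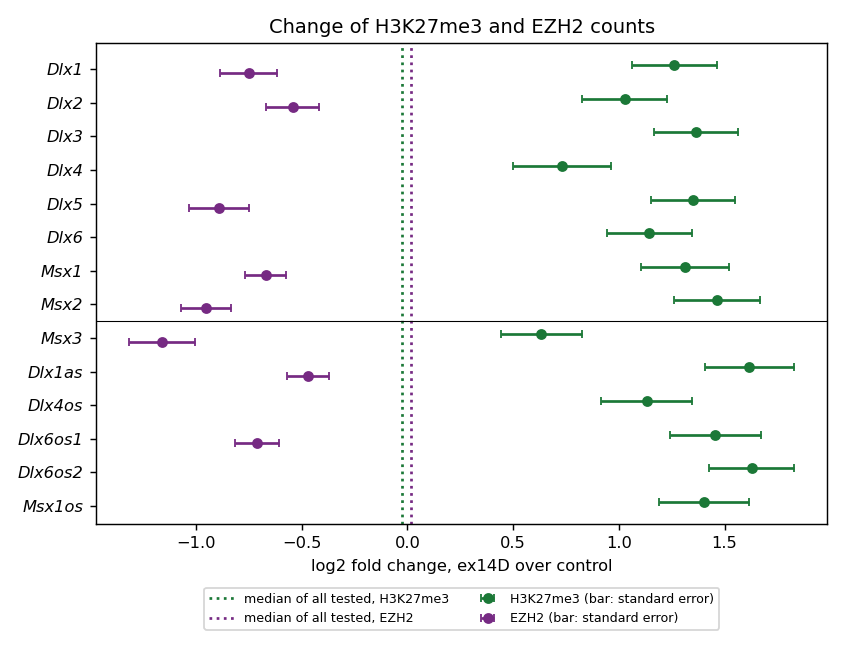
Log2 fold change of ex14D over control for H3K27me3 (green) and EZH2 (purple), with approximate standard errors, for the 8 genes (above the line) and for Msx3 and the overlapping noncoding genes (below it). H3K27me3 values of the 8 lie between 0.73 and 1.46 and EZH2 values between -0.95 and -0.54, on opposite sides of the dotted medians of all genes tested; genes without a purple point are listed at 0 EZH2 reads.

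EZH2 went the other way. The EZH2 reads were counted over genes rather than promoter windows, and levels are given as CPM per kb of the part of a gene that no other counted gene overlaps. Of the 8 genes, 5 had EZH2 counts and were tested, and 5 of 5 were lower in ex14D by edgeR, as by DESeq2, with 0 higher, also at an unadjusted p under 0.05. Over 13401 genes tested, 7.88% were called lower and 0.0522% higher. These genes were not matched for EZH2 level, and no share among genes of like EZH2 in control was computed. The median log2 fold change of the 5 was -0.75, against 0.02 over all genes tested, so that EZH2 fell to 59.4% of its control level at the median gene. At all 5 both ex14D libraries were below both control libraries, which held at 18% of all genes tested. These are again shares of a library and not amounts per cell.

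Dlx2 had the most EZH2 per kb of the 5, at 55.3 and 56.3 CPM per kb in control and 45.4 and 33.5 CPM per kb in ex14D. Its fall of the EZH2 counts was the smallest, with a log2 fold change of -0.54 (SE 0.12, edgeR adjusted p = 0.0399). The EZH2 call at Dlx2 was lost in 4 of 10 alternatives, at an adjusted p of 0.0535 with RLE size factors and 0.061 with the replicate block. Dlx1 measured 36.8 and 38.4 CPM per kb in control and 26.9 and 19.5 CPM per kb in ex14D, over the 1193 bp outside Dlx1as, and fell by 0.75 (SE 0.13, edgeR adjusted p = 0.0149) on the log2 scale. Dlx5 measured 38.9 and 38.5 CPM per kb in control and 25.3 and 17.8 CPM per kb in ex14D. It fell by 0.89 (SE 0.14, edgeR adjusted p = 0.0101), to 53.9% of control.

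Msx1 measured 54.0 and 52.7 CPM of EZH2 per kb in control and 38.2 and 30.9 CPM per kb in ex14D, and fell by 0.67 (SE 0.097, edgeR adjusted p = 0.00764). Msx2 had the least EZH2 per kb, at 11.2 and 10.3 CPM per kb in control and 6.52 and 4.97 CPM per kb in ex14D, and the largest fall, by 0.95 (SE 0.12, edgeR adjusted p = 0.00554), to 51.6% of control. Per kb, even Msx2 was far above the typical gene. The median over 13627 genes was 0.977 to 1.04 CPM per kb, and 1.58% to 1.83% of genes were at or above the level of Msx2. Such values average over the whole gene, so a short domain in a long gene gives a low value. Bmp6 had an EZH2 domain of 4 to 6 kb at its promoter, but 1.45 to 1.79 CPM per kb over 152996 bp. The part of gene length in the rank of Msx2 was not tested. Msx3 measured 27.8 and 25.7 CPM per kb in control and 14.8 and 9.99 CPM per kb in ex14D, and fell by 1.16 (SE 0.16, edgeR adjusted p = 0.00655), more than any of the 5. Of the noncoding partners, Dlx1as fell by 0.47 (SE 0.099, edgeR adjusted p = 0.0291, but 0.0842 by DESeq2) and Dlx6os1 by 0.71 (SE 0.10, edgeR adjusted p = 0.00764). In control the levels of Dlx2 and Msx1 lay above those of Dlx5 and Dlx1, whose libraries lay close together, and Msx2 was apart from all of them.

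The ex14D library of replicate 2 was the lower one at all 5 genes, and the control libraries lay close together. Leaving out either control library left 0 EZH2 calls among all genes by edgeR, with 1372 or 1300 genes lower at an unadjusted p under 0.05, and so 0 of 5. All 5 log2 fold changes stayed negative, with medians of -0.78 and -0.71. Leaving out ex14D replicate 1 took the median to -1.02, and leaving out replicate 2 took it to -0.52, with 5 of 5 called in each case.

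Dlx3, Dlx4 and Dlx6 are listed at 0 EZH2 reads in all 4 libraries and give no comparison. Dlx6 lies wholly inside Dlx6os1, and of 1831 genes with no base of their own 1758 (96.0%) are listed at 0, against 43.2% of all genes. Dlx3 and Dlx4 lie in a run of 1388 neighbouring genes on chromosome 11, from 55514239 to 121843438, that are all listed at 0. The zeros at these genes are therefore no measure of EZH2, and the domains described next show EZH2 at all 3.

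**Figure D3:**
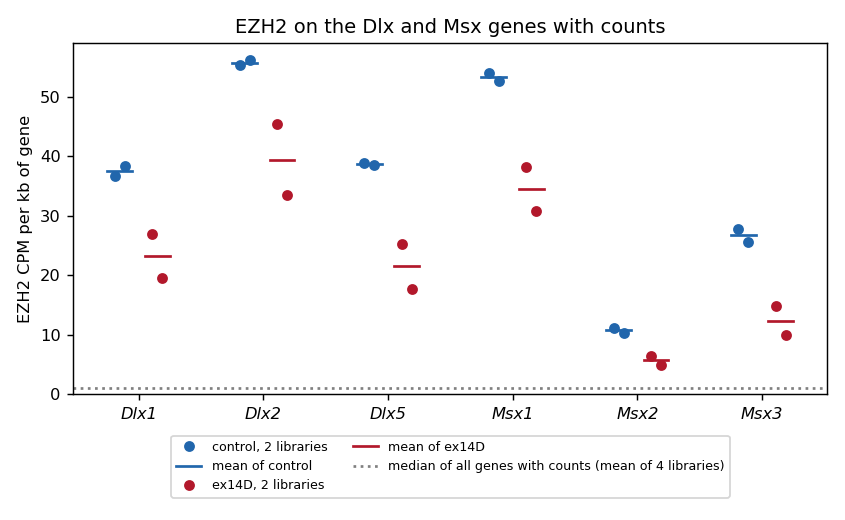
EZH2 reads per kb of gene (CPM per kb) at the 5 Dlx and Msx genes with counts and at Msx3; points are single libraries and short lines the mean of 2 libraries. All 6 genes have both ex14D points below both control points, and the dotted line marks the median gene, near 1 CPM per kb.

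EZH2 domains and H3K27me3 peaks, called by the authors in each library, were placed on the promoter windows. An overlap of at least 1 bp with the window was counted. An H3K27me3 peak overlapped the window of 8 of 8 genes in all 4 libraries, which held for 15.1% of 24368 genes. An EZH2 domain overlapped it at 8 of 8 in all 4 libraries, Dlx3, Dlx4 and Dlx6 included, which held for 10.4% of genes. Of 4090 genes with a domain in both control libraries, 2532 (61.9%) had one in all 4. The peaks at the 8 promoters were 7.57 to 37.7 kb wide, where the median peak of a library was 1.60 to 2.17 kb, and the domains were 6 to 36 kb wide, where the median domain was 2 to 3 kb. In each library 5.66% to 8.03% of peaks and 6.85% to 18.2% of domains were at least as wide as the narrowest at these genes.

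The gene pairs differed in how they were covered. A single H3K27me3 peak and a single EZH2 domain ran over both Dlx1 and Dlx2 in every library, and likewise over both Dlx5 and Dlx6, so the members of these pairs are not independent of each other. Dlx3 and Dlx4 had separate peaks and separate domains in every library. At Dlx3 the H3K27me3 peak was 7.57 and 9.16 kb wide in control and 9.13 and 7.98 kb in ex14D, the narrowest of the 8. At Dlx4 it was 16.2 and 18.6 kb in control and 17.9 and 15.2 kb in ex14D, and reached over the start of Dlx4os. The ex14D widths overlapped the control widths at both genes.

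EZH2 domains were shorter in ex14D at both of the shared domains, by several kilobases at one end of each. The Dlx1 and Dlx2 domain was 27 and 28 kb in control and 22 and 23 kb in ex14D. It ended at 71553000 in both control libraries and at 71548000 in both ex14D libraries, beyond the promoter of Dlx2, whereas its other end fell at 71525001 or 71526001 in each genotype. The H3K27me3 peak there ran on in ex14D to 71554198 and 71553235, past the end of the ex14D domain, and was 31.3 and 28.6 kb wide against 32.0 kb in both control libraries. The Dlx5 and Dlx6 domain was 35 and 36 kb in control and 30 kb in both ex14D libraries. It began at 6850001 and 6849001 in control and at 6854001 in both ex14D libraries, within Dlx6os1, and its far end moved from 6885000 to 6884000. The H3K27me3 peak kept its extent there, at 36.8 and 37.7 kb in control and 36.6 and 36.0 kb in ex14D. Shorter EZH2 domains were not confined to these pairs. Among genes named below, the domain at Lhx6 was 18 and 20 kb in control and 7 kb in both ex14D libraries. At Twist1 it was 15 and 16 kb in control and 5 and 4 kb in ex14D, whereas at Npy it was 3 kb in every library.

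Within 20 kb on either side of the other Dlx and Msx genes no such step was seen. EZH2 domains covered 17 and 21 kb around Msx1 in control and 17 kb in both ex14D libraries. Around Msx2 they covered 17 kb in both control libraries and 16 to 17 kb in ex14D. Around Dlx3 and Dlx4 they covered 17 to 25 kb in control and 16 to 18 kb in ex14D, so the genotypes overlapped at these loci. H3K27me3 peaks covered 22.1 to 33.4 kb around Msx2 in control and 28.2 to 30.3 kb in ex14D, and 26.8 to 32.4 kb against 25.8 to 29.6 kb around Msx1. With 2 libraries a genotype and edges that fall on whole kilobases, the domain widths carry no test, and the number of domains called over the genome was itself lower in ex14D, at 5067 and 4122, than in control, at 7322 and 7704, whose part in the widths was not tested.

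**Figure D4:**
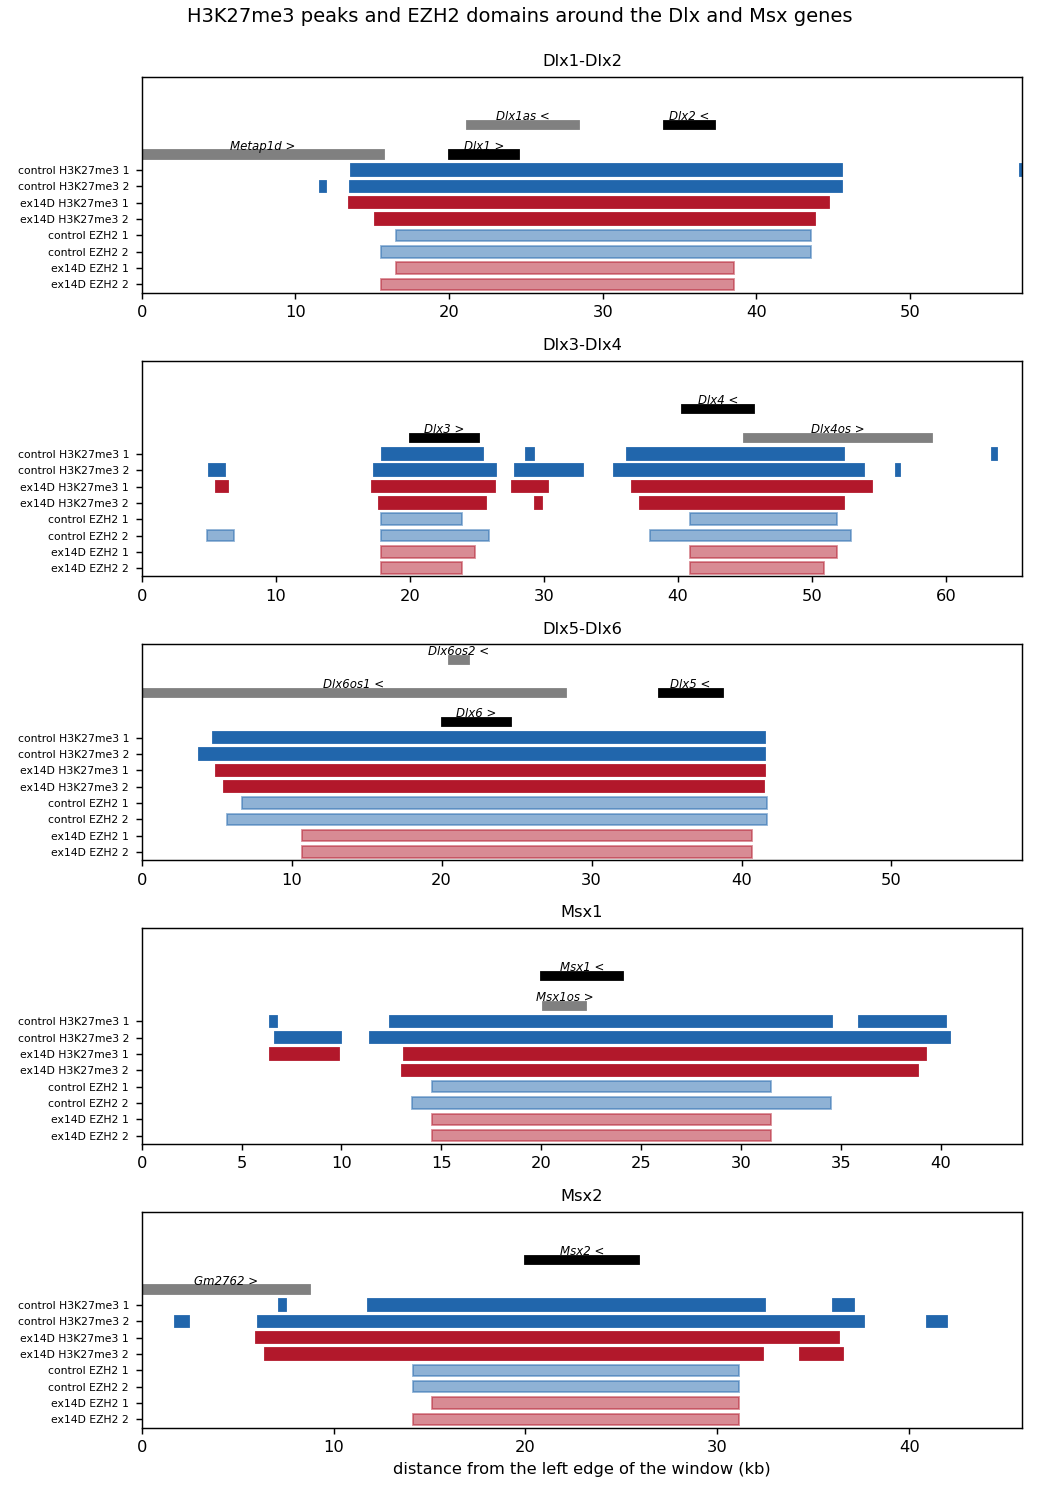
H3K27me3 peaks (solid bars) and EZH2 domains (pale bars) in every library around the 5 loci, in kb from the left edge of a window that reaches 20 kb past the genes. Control is blue and ex14D red, and genes are drawn above with their direction. The ex14D domains end early on the right of Dlx2 and begin late on the left of Dlx6, while the H3K27me3 peaks cover nearly the same stretch in both genotypes.

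Beyond the Dlx and Msx genes, 9 of the 10 flanking promoters were below 2-fold H3K27me3 over input in all 4 libraries, and Itga3 was not. The nearest counted genes on each side were Metap1d and Platr26 for Dlx1 and Dlx2, Itga3 and Tac4 for Dlx3 and Dlx4, Shfm1 and Sdhaf3 for Dlx5 and Dlx6, Cytl1 and Stx18 for Msx1, and Gm2762 and 9530014B07Rik for Msx2. Metap1d ends 4254 bp from Dlx1, and its own promoter held 11.8 and 33.1 CPM of H3K27me3 in control and 20.0 and 17.6 CPM in ex14D, all below its input of 78.2 and 50.4 CPM. Itga3 measured 82.5 and 160.1 CPM in control and 109.6 and 104.2 CPM in ex14D. Its log2 values over input were 0.48 and 1.43 in control and 1.11 and 1.03 in ex14D, so it met the rule for an enriched promoter in ex14D and not in control. An H3K27me3 peak lay on its window in all 4 libraries, 5.27 to 11.4 kb wide in 3 of them and 5.075 kb in control replicate 1. An EZH2 domain of 2 and 3 kb lay there in the control libraries and none in the ex14D libraries. Among the other 9, Metap1d and Tac4 had a peak in control replicate 2 alone, of 3.90 and 4.66 kb, and Stx18 had an EZH2 domain of 1 kb in control replicate 2 alone. For H3K27me3, 8 of the 10 flanking genes had enough reads to be tested, without Shfm1 and Sdhaf3. By edgeR 0 of these 8 passed the threshold, with 1 lower at an unadjusted p under 0.05, and 0 passed by DESeq2, whereas 1 passed with library size only and 1 with all counted reads as library size. For EZH2, 8 were tested, without Itga3 and Tac4, which are listed at 0, and 0 passed by edgeR or DESeq2, with 0 at an unadjusted p under 0.05. On those 8 genes EZH2 stood at 0.498 to 1.20 CPM per kb, around the level of the median gene. These values average over 3310 to 97963 bp of gene, so a short stretch of EZH2 in a long gene could be missed.

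**Figure D5:**
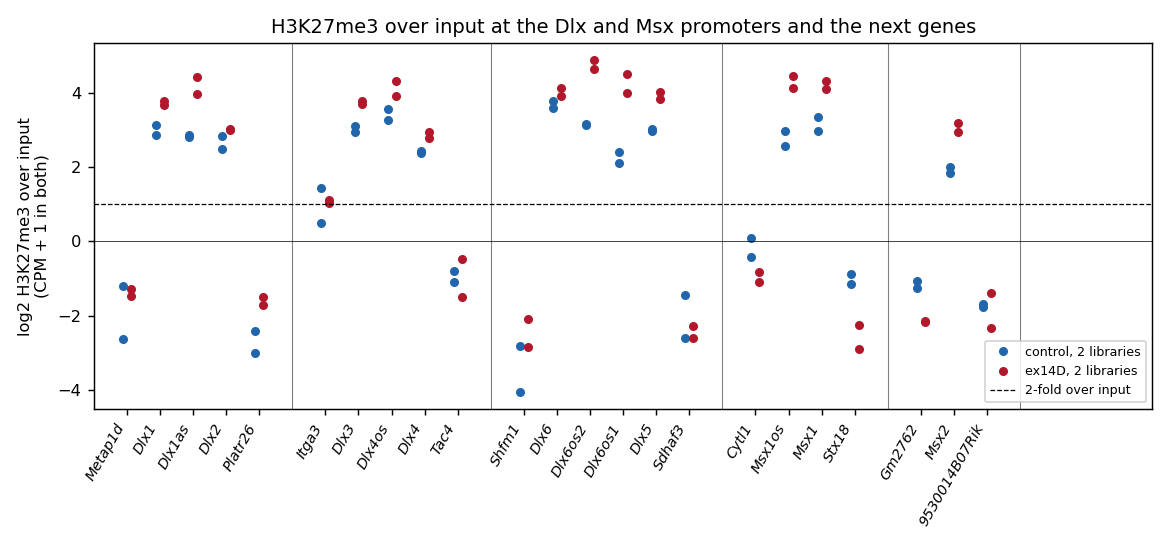
Log2 of H3K27me3 over input, (CPM + 1) in both, at the Dlx and Msx promoters, their noncoding partners and the nearest gene on each side, in genome order within each locus. Points are single libraries, 2 per genotype; every Dlx and Msx gene lies above the dashed line of 2-fold, Itga3 lies above it in 3 of 4 libraries, and the other 9 flanking genes lie below it.

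Of the other genes in the genome, the ones whose CPM over the 4 H3K27me3 and 2 input libraries lay nearest to the median profile of the 8 were Ccnd2, Hoxb1 and Scarf2. Their Euclidean distances on the log2(CPM + 1) scale were 0.27, 0.32 and 0.32. The 8 genes themselves lay at 0.18 (Dlx5) to 4.32 (Dlx4), with Msx2 at 1.20 and Dlx2 at 0.82, so these 3 promoters lay nearer to the typical Dlx or Msx gene than Dlx1, Dlx2, Dlx4, Dlx6, Msx1 and Msx2 did. Ccnd2, which encodes cyclin D2, measured 430.8 and 416.1 CPM of H3K27me3 in control and 641.0 and 674.7 CPM in ex14D.

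Part of the wider homeobox subclass to which these genes belong, the NK-like one, was examined as a chosen list of 25 genes. The list held Msx3, excluded the 8 and held no Nkx gene, so it does not stand for the whole subclass. H3K27me3 was at least 2-fold over input in both control libraries at 23 of 25. It was higher in ex14D at 18 of 25 and lower at 0, with a median log2 fold change of 1.17. The largest rises were at Emx2, a regulator of the dorsal forebrain (1.69, SE 0.36, edgeR adjusted p = 0.00232), at Barhl2 (1.63, SE 0.21, edgeR adjusted p = 8.25e-06) and at Tlx2 (1.54, SE 0.22, edgeR adjusted p = 2.73e-05). The Emx2 window has only 55 bp of its own. It held 10 and 24 H3K27me3 reads in control, 87 and 54 in ex14D, and 1 input read per genotype. EZH2 was lower at 13 of the 18 tested and higher at 0, most at Barhl1 (-1.51), Lbx2 (-1.47) and Dbx1 (-1.26). The median of the list was close to that of the 8 Dlx and Msx genes for H3K27me3, and for EZH2 it was -0.63.

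Genes of BMP signalling, the pathway that acts upstream of Msx1 and Msx2, were examined as a list of 24. In control, 13 of 24 were enriched for H3K27me3. Of 23 tested, 3 were higher and 2 lower in ex14D, with a median log2 fold change of -0.01, beside the background of 5.85% higher and 3.19% lower. The largest changes were lower values at Id4 (-1.98, SE 0.37, edgeR adjusted p = 0.000645), an inhibitor of bHLH factors, and at the receptor gene Bmpr2 (-1.90, SE 0.33, edgeR adjusted p = 0.000274), and a higher value at the ligand gene Bmp6 (1.37, SE 0.22, edgeR adjusted p = 9.66e-05). Id4 and Bmpr2 were not enriched in control by the rule used here. Their control log2 values over input were 0.25 and 0.59 at Id4, and 0.80 and 1.40 at Bmpr2. Id4 had 26 and 52 reads in control and 16 and 9 in ex14D. At Bmp6 the paper reported less H3K27me3 in ex14D cells by ChIP-PCR, a different measure from shares of a library. EZH2 was lower at 7 of 20 tested and higher at 0, with Id4 at -1.50, Bmp4 at -1.20 and Bmp2 at -1.09.

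Forebrain GABAergic genes, which act downstream of or beside the Dlx genes, were enriched in control at 18 of 18. At Slc32a1 this has no weight, since its control input held 0 reads and its window has 35 bp of its own. H3K27me3 was higher in ex14D at 12 and lower at 1 of 18, with a median of 1.20. Among the higher ones were the transcription factor genes Lhx8 (1.69, SE 0.24, edgeR adjusted p = 2.98e-05) and Gsx2 (1.54). The Lhx8 window has 261 bp of its own and held 6 input reads in control and 3 in ex14D. EZH2 was lower at 7 of 12 tested and higher at 0. Slc32a1, which encodes the vesicular GABA transporter, fell by 2.10 (SE 0.15, edgeR adjusted p = 0.00325), and Npy and Lhx6 fell by 0.96 and 0.93.

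Genes that act with Msx and Dlx in the neural crest, the limb and the tooth were enriched in control at 25 of 27. H3K27me3 was higher at 18 of 27 and lower at 0, with a median of 1.01, and Tfap2b (1.49) and Tfap2a (1.46) were among those that rose. EZH2 was lower at 13 of 15 tested and higher at 0, with a median of -0.73, and Tfap2b (-1.17), Twist1 (-1.13) and Tfap2c (-1.11) fell most. In each of the 4 lists, the share of genes with higher H3K27me3 and the share with lower EZH2 were above those over all genes. Both shares were lowest in the BMP list. For H3K27me3, 37.7% of promoters with control enrichment in the range of the 8 were higher, which is the nearer background for lists of mostly enriched promoters. No such matched share was computed for EZH2. In the BMP list 7 of 20 genes were lower in EZH2, and for H3K27me3 3 of 23 were higher and 2 lower. Where a list had 0 genes in a direction, at most 1 of its genes moved that way at an unadjusted p under 0.05 by edgeR, and DESeq2 called 0. The EZH2 counts of all 4 lists went to 0 when either control library was left out, as at the Dlx and Msx genes. Without control H3K27me3 replicate 2, H3K27me3 was called higher at 6 genes of the homeobox list, 0 of the BMP list and 5 of the neural crest list. The calls named above at Emx2, Id4, Bmpr2, Bmp6 and Tfap2a were lost in that setting.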

How the data were processed

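Groups of the H3K27me3, EZH2 and input ChIP-seq libraries follow the labels' genotype and antibody. Reads were aligned to mm10 by the authors, who then ran htseq-count, and deposited raw counts of whole reads. The submitters' processing notes name Bowtie2, Trimmomatic, HTSeq, MACS2 and ChIPseeker, and the methods name hiddenDomains. The methods give 1 kb promoter windows, which the EZH2 counts do not follow, so these were treated as counts over genes. Reads on no gene (92% to 98% of counted reads for H3K27me3 and input, 33.8% to 34.9% for EZH2) and reads on more than 1 interval stayed out of library sizes. The deposited fold enrichment (a ratio), −log10 p and −log10 q of MACS2 broad peaks are the authors' values. They had almost no relation to the window counts (Spearman's rho 0.0517 to 0.0931 across genes, which are not independent), so peaks were used for position and, in 1 alternative, for a minimum of 3 on the −log10 q. Domain positions were deposited without a score. The H3K27me3 domain files were not used, because their positions run past the chromosome ends of this build.

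Genes were placed with RefSeq on GRCm38.p6 (24368 of 24500). Control and ex14D were compared per antibody with edgeR 4.0.16 in R 4.3.3. The test was the quasi-likelihood F test after TMM scaling and filterByExpr, with Benjamini-Hochberg adjustment over all genes tested and a threshold of 0.05. The procedure was also run on simulated counts with a common dispersion and equally many rises and falls. That run is no check on the scaling, since the unequal TMM factors of these data were not simulated. Standard errors are approximate, from the log2 fold change and its F. The filter kept 8 of the 8 genes for H3K27me3 and 5 for EZH2. Enrichment over input used a pseudocount of 1 CPM. DESeq2 1.42.0, other scalings and filters and each library left out in turn were alternatives. The 8 genes and all lists were chosen with earlier results of these data known. Genes named were the 8, Msx3, noncoding genes that overlap one of them, the nearest gene on each side, the 3 nearest profiles and, from each list, at most 3 genes past the threshold with the largest change, of which some are not reported here. Scripts ran in Python 3.11.15 with pandas 2.3.3 and scipy 1.17.1.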

Additional observations from a re-analysis of the deposited data

How the results depend on the processing

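For H3K27me3 all 8 genes stayed higher in ex14D in every alternative, and the count past the threshold was 7 or 8 of 8 except without control replicate 2, so that the range with 1 library left out was 4 to 8. The median log2 fold change of the 8 was 1.29, and it moved to 0.84 with library size only, to 1.15 with all counted reads as library size, to 1.44 when centred on promoters under 2-fold over input, and to 0.92, without a test, when input CPM was subtracted, a setting chosen after seeing the data. With 1 library left out it ran from 1.08 to 1.33. Dlx4 lost its call in 8 of 12 alternatives. With RLE size factors 4 of 5 EZH2 calls were left, without Dlx2. For EZH2 all 5 genes stayed lower, but leaving out 1 library gave 0 to 5 calls, 0 without either control library, and medians from -1.02 to -0.52. A lone library was taken to vary like the other groups. The cause of these shifts was not tested. Over all promoters, the calls in ex14D were 475 lower and 871 higher for H3K27me3, 2176 and 398 with library size only, 353 and 1278 when centred on unmarked promoters, 73 to 610 lower and 255 to 797 higher with 1 library left out, and 263 and 670 by DESeq2. For EZH2, 1056 were lower and 7 higher, against 852 and 3 with the replicate block, 955 and 47 with library size only and 736 and 0 by DESeq2, which had 7 higher at an unadjusted p under 0.05. Replicate numbers mark no pairing in the labels. Deviations of same-numbered libraries correlated at -0.1045 for H3K27me3 and -0.03169 for EZH2. The replicate block left 7 of 8 H3K27me3 calls, without Dlx4, with a median of 1.29, and 4 of 5 EZH2 calls, without Dlx2, with a median of -0.76. Crossed numbers, added after seeing the data, gave 795 lower and 1185 higher H3K27me3 calls. Enrichment over input, peaks and domains held at all 8 genes under every pseudocount, overlap and left-out library tried, and peaks with a −log10 q of at least 3 in all 4 libraries were found at 7 of 8, without Dlx3.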
